A study of Mus musculus with 4 samples.

Results

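The second functional NK cluster is a group of natural killer (NK) cells from orthotopic CT26 tumors, taken as every cell to which the authors gave this name. It held 292 of the 17674 cells analysed, 184 from Cyp51-KO tumors and 108 from sg-Ctrl tumors. CT26 is a mouse colorectal cancer line, injected orthotopically here into male BALB/c mice that were 8 to 10 weeks old at injection, and tumors were taken at day 26. In the Cyp51-KO group the injected cells carried a lentiviral CRISPR knockout of Cyp51, a demethylase of cholesterol synthesis, and in the sg-Ctrl group a control guide. Both groups of tumor cells carried the TagBFP marker of the vector, were selected as a sorted population, and grew in mice for which no engineered allele is named, so the NK cells are those of the hosts. Cells of 9 Cyp51-KO tumors and 12 sg-Ctrl tumors were sorted as bulk leukocytes (CD45+), as T cells (CD3+) and as tumor cells, and were mixed at 50%, 40% and 10%. The comparison asks how the loss of Cyp51 in tumor cells goes along with the number and state of this NK population. With 2 samples listed per group but cells tied only to the group, each group is 1 set of cells, so no test was made and every interval covers counting error only, not differences between tumors, sorts or libraries.

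NK cells are innate lymphocytes that kill stressed or transformed cells without prior contact. They release perforin, which opens the target membrane, and granzymes, the serine proteases that then start cell death, and they secrete interferon and chemokines that draw other immune cells into a tumor. NK cells of solid tumors range from blood-like cytotoxic cells to cells with features of tissue-resident innate lymphocytes.

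The label could not be checked against expression, since 0 of the NK markers Ncr1 (the activating receptor NKp46) and Klrb1c (NK1.1) has a value in the table. The genes that the study lists as leading for this cluster are nearly all of the cytotoxic granule. They are the granzymes Gzma, Gzmb, Gzmc, Gzmd, Gzme, Gzmf and Gzmg with perforin (Prf1), the transcription factor Irf8 and the carbonic anhydrase Car2. Neither Ncr1 nor Klrb1c is on that list, and Ncr1 is on the lists of the first functional NK cluster and of the activated NK cluster. Each list holds only the few top genes of its cluster. Absence from it therefore does not show whether a gene is expressed. Gzma, Gzmb and Irf8 are shared with the first functional cluster, and Gzmc and Car2 with the activated cluster. In mouse, Gzmc to Gzmg are a family of closely related proteases beside Gzmb. In the GENCODE M21 annotation of GRCm38, Gzmb to Gzmg lie together on the minus strand of chromosome 14, from 56117626 to 56262260. This stretch of 144.6 kb holds 7 protein-coding genes, all of them granzymes. The longest transcripts of the 7 granzymes on the list were compared in windows of 100 bases. Among them, only Gzmd and Gzmg shared any letter for letter, 2 of 865 in Gzmd and 2 of 810 in Gzmg. Gzmn, which also lies in this stretch, was not compared. These genes come from the expression on which the clusters were built, so they are background and no result.

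Among the 3 NK clusters, the second functional cluster was the smallest, and Cyp51-KO tumors had the higher share of it, though the intervals overlapped at their ends. It was 14.7% of NK cells in Cyp51-KO tumors (184 of 1254 cells, exact 95% binomial interval 12.8 to 16.8%), against 10.9% in sg-Ctrl tumors (108 of 992 cells, 9.02 to 13.0%). The log2 ratio was 0.43, with a range of -0.026 to 0.89 when the lower bound of each share is set against the upper bound of the other, a range that includes 0. The first functional cluster was 60.4% (57.6 to 63.1%) of NK cells in Cyp51-KO tumors, against 66.2% (63.2 to 69.2%) in sg-Ctrl tumors, with intervals that lay just apart (log2 ratio -0.13). The activated cluster was 25% (22.6 to 27.5%) in Cyp51-KO tumors, against 22.9% (20.3 to 25.6%) in sg-Ctrl tumors, with wide overlap. For every 100 cells of the first functional cluster there were 24.3 cells of the second in Cyp51-KO, against 16.4 in sg-Ctrl tumors. For every 100 activated cells there were 58.8 in Cyp51-KO, against 47.6 in sg-Ctrl tumors.

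**Figure D1:**
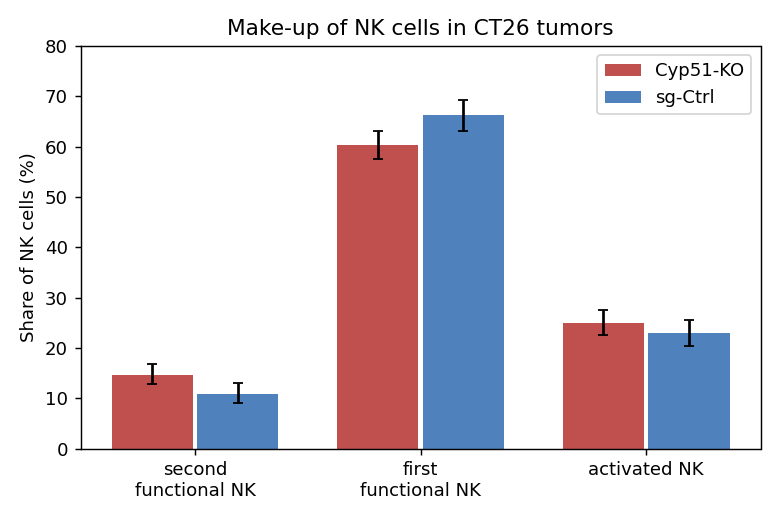
Share of NK cells (percent, vertical axis) held by each of the 3 NK clusters, Cyp51-KO left of sg-Ctrl, as bars from 0 with lines for exact 95% binomial intervals. The second functional NK cluster lies at 14.7% in Cyp51-KO, against 10.9% in sg-Ctrl tumors, with interval lines that overlap at their ends.

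The direction was the same over all 7 denominators used, whereas the separation of the intervals was not. The intervals lay apart over the functional NK clusters alone, where the share was 19.6% in Cyp51-KO tumors (17.1 to 22.2%), against 14.1% in sg-Ctrl tumors (11.7 to 16.8%), which gives a log2 ratio of 0.47 (0.024 to 0.92). They also lay apart over lymphocytes (log2 ratio 0.57), as they did in 30.8% of the lymphocyte clusters. Against NK, B and plasma cells, which come mainly from the bulk leukocyte sort and so depend less on the added T cells, the shares were 12.4% (10.8 to 14.2%) in Cyp51-KO, against 9.43% (7.80 to 11.3%) in sg-Ctrl tumors, with overlap. The log2 ratio was smallest over the second functional and activated clusters alone, at 0.20 (-0.20 to 0.60), and over all cells, at 0.22 (-0.26 to 0.71). NK cells as a whole were 21.1% of lymphocytes in Cyp51-KO, against 19.1% in sg-Ctrl tumors, with intervals that overlap, so part of the ratio over lymphocytes is that of all NK cells together. Over immune cells, which leave out malignant and intestinal cells, NK cells were 15.9% in Cyp51-KO, against 15.5% in sg-Ctrl tumors, with overlap. Tumor cells were mixed in at 10%, and malignant cells were 23.2% of all cells in Cyp51-KO, against 10.1% in sg-Ctrl tumors. They count in the share over all cells, which therefore depends on the mix. There the direction was the opposite, with NK cells at 12.0% in Cyp51-KO, against 13.8% in sg-Ctrl tumors (log2 ratio -0.21, intervals apart).

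**Figure D2:**
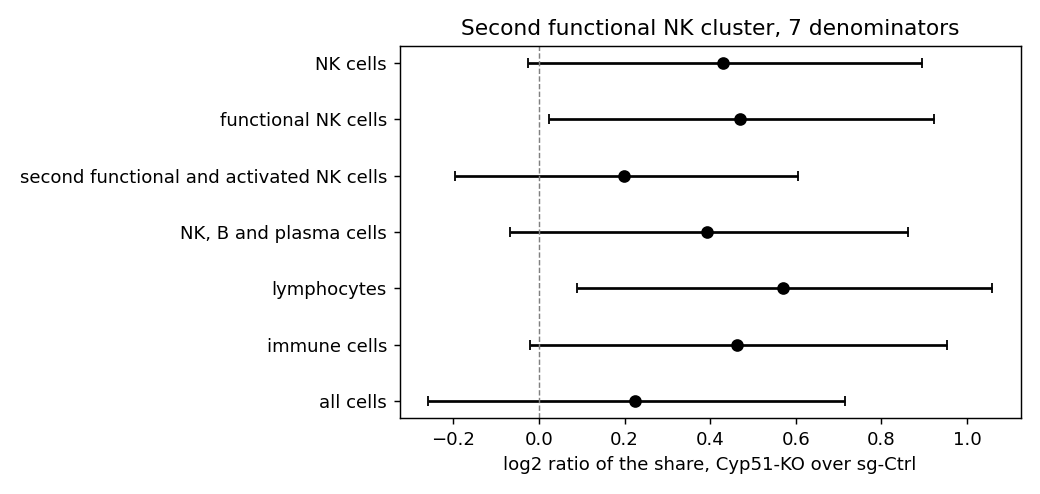
The log2 ratio of the share of the second functional NK cluster, Cyp51-KO over sg-Ctrl (horizontal axis), for each denominator, with bars that set the exact 95% bounds of both shares against each other. All 7 points lie above 0, and the bars clear 0 over functional NK cells and over lymphocytes.

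Far more RNA molecules were captured from cells of the second functional NK cluster than from other NK cells. They were counted as unique molecular identifiers (UMIs), which stand for single captured transcripts. The median was 14908 UMIs in Cyp51-KO tumors (184 cells, exact 95% interval of the median 13790 to 16801, quartiles 10330 and 21914), against 20086 UMIs in sg-Ctrl tumors (108 cells, 17821 to 21547, quartiles 13937 and 26926). Within Cyp51-KO tumors the median was 4.34-fold that of the first functional cluster (3.70 to 5.17) and 2.97-fold that of activated cells (2.51 to 3.69). Within sg-Ctrl tumors it was 3.17-fold that of the first functional cluster (2.56 to 3.65) and 2.55-fold that of activated cells (2.16 to 2.97). Taking every pair of cells, a cell of the second functional cluster had more UMIs than a cell of the first in 91.6% of pairs in Cyp51-KO, against 91.0% in sg-Ctrl tumors. Clusters were built from the same transcripts, so this difference is a description of the cluster.

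Between the groups, the cluster had fewer UMIs per cell in Cyp51-KO tumors, and the medians had a log2 ratio of -0.43 (-0.64 to -0.085). A lower median with separate intervals was found in 80% of the 20 clusters, so it is no mark of this one. Its drop was smaller than that of the first functional cluster, whose medians were 3437 UMIs in Cyp51-KO, against 6337 UMIs in sg-Ctrl tumors (log2 ratio -0.88, -1.10 to -0.66), with ranges that lay apart by a narrow margin. Activated cells had medians of 5015 UMIs in Cyp51-KO, against 7865 UMIs in sg-Ctrl tumors (-0.65, -0.86 to -0.40), a range that overlaps. The other 12 lymphocyte clusters had log2 ratios from -1.18 to -0.48, with a median of -0.86. The nearest were proliferating T cells (-0.48, -0.67 to -0.35) and effector CD8 T cells (-0.52, -0.71 to -0.30), with ranges that overlap that of the second functional NK cluster. Whether fewer UMIs come from less RNA per cell or from a shallower library cannot be told apart.

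**Figure D3:**
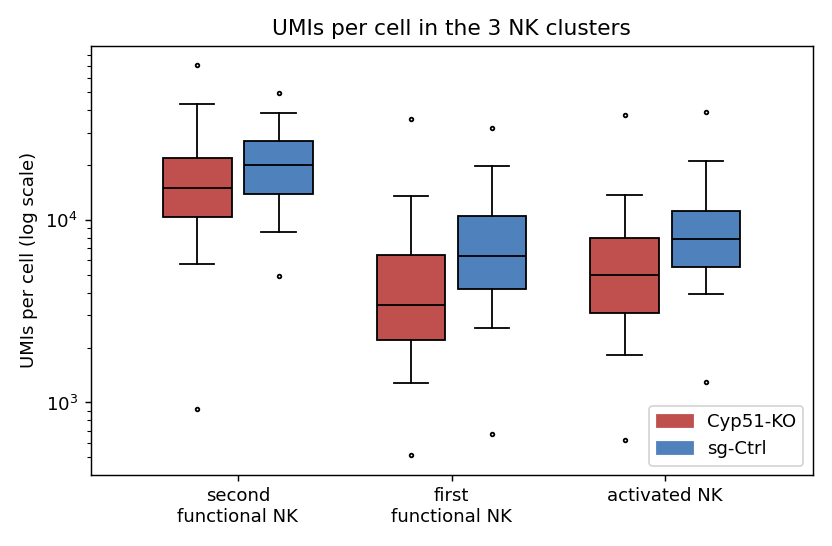
UMIs per cell (log scale, vertical axis) in the 3 NK clusters, Cyp51-KO left of sg-Ctrl, where boxes span the quartiles with the median as a line, whiskers reach the 5th and 95th percentiles, and dots are the lowest and the highest cell. The boxes of the second functional NK cluster, with medians of 14908 UMIs in Cyp51-KO and 20086 UMIs in sg-Ctrl tumors, lie above those of both other clusters within the same group of tumors.

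These UMIs gave the cluster a weight beyond its number of cells. It carried 37.2% of all UMIs of NK cells in Cyp51-KO, against 23.6% in sg-Ctrl tumors, from 14.7% of the cells in Cyp51-KO, against 10.9% in sg-Ctrl tumors. Of all lymphocyte UMIs it carried 9.21% in Cyp51-KO, against 4.96% in sg-Ctrl tumors. Such shares depend on UMIs per cell as well as on cells. Between the groups, UMIs dropped more in the first functional cluster (log2 ratio -0.88). A cell of the cluster in Cyp51-KO tumors had more UMIs than one in sg-Ctrl tumors in 37.2% of all pairs, so the groups overlap broadly.

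In the order of the 20 clusters by median UMIs, the second functional NK cluster stood at place 3 in both groups, below malignant cells and plasma cells. Of the 13 lymphocyte clusters, only plasma cells, which secrete antibodies, were higher, at 19262 UMIs in Cyp51-KO tumors (50 cells), against 34629 UMIs in sg-Ctrl tumors (16 cells). The interval of the second functional NK cluster overlapped those of plasma cells, monocytes and macrophages in Cyp51-KO tumors, and those of monocytes, macrophages and proliferating T cells in sg-Ctrl tumors. Proliferating T cells, which double their content before division, had medians of 12244 UMIs in Cyp51-KO tumors, against 17037 UMIs in sg-Ctrl tumors. No other NK cluster came near it in this order.

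Within NK cells, membership of the cluster went with UMIs per cell. Of NK cells with at least 20000 UMIs, 79.2% belonged to it in Cyp51-KO tumors (57 of 72 cells, 68.0 to 87.8%), against 58.3% in sg-Ctrl tumors (56 of 96 cells, 47.8 to 68.3%). Between 10000 and 20000 UMIs the share was 40.6% in Cyp51-KO tumors (84 of 207 cells, 33.8 to 47.6%), against 16.5% in sg-Ctrl tumors (43 of 261 cells, 12.2 to 21.5%). Between 5000 and 10000 UMIs it was 11.2% in Cyp51-KO tumors (35 of 313 cells, 7.91 to 15.2%), against 2.25% in sg-Ctrl tumors (8 of 355 cells, 0.978 to 4.39%). In both of these middle ranges the intervals lay apart, and above them they overlapped slightly. Below 5000 UMIs the cluster held only 8 Cyp51-KO cells, 2 of them under 2000 UMIs, and 1 sg-Ctrl cell. None of its 108 sg-Ctrl cells was under 2000 UMIs, which allows a share of up to 2.78% when 3 counts are taken as the limit, and up to 3.36% by the exact interval. Of the first functional cluster, 19.9% were under 2000 UMIs in Cyp51-KO tumors (151 of 757 cells), against 3.04% in sg-Ctrl tumors (20 of 657 cells). When NK cells of both groups were weighted to the same distribution over these 5 ranges, the share was 18.7% in Cyp51-KO, against 8.83% in sg-Ctrl tumors, which gives a log2 ratio of 1.08. All NK cells had fewer UMIs in Cyp51-KO tumors (median 4591 UMIs, against 7564 UMIs in sg-Ctrl tumors), so a given range holds cells of a higher rank within their group there, and the weighted share is given as a value only.

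**Figure D4:**
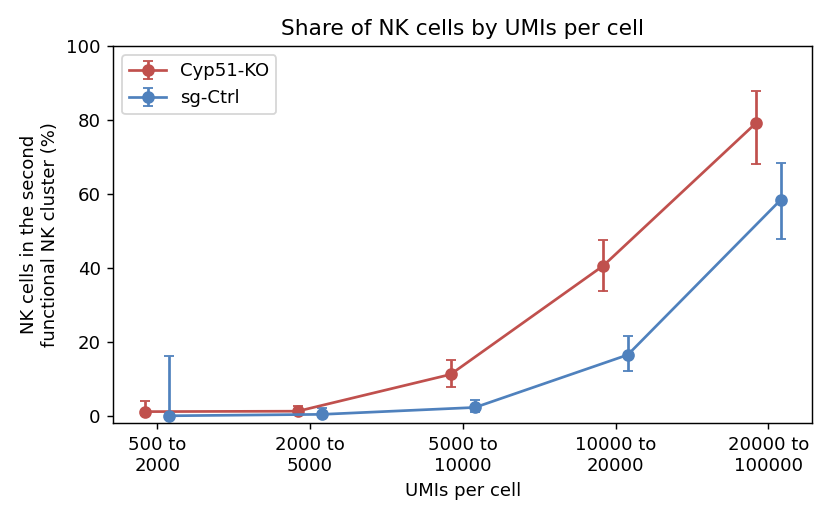
Percentage of NK cells that belong to the second functional NK cluster (vertical axis) in 5 ranges of UMIs per cell (horizontal axis), for each group of tumors, where bars give exact 95% binomial intervals. The share is near 0 below 5000 UMIs and reaches 79.2% in Cyp51-KO, against 58.3% in sg-Ctrl tumors above 20000 UMIs.

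The number of genes detected followed the UMIs. The median cell had 3307 genes in Cyp51-KO tumors (exact 95% interval 3127 to 3446), against 4104 genes in sg-Ctrl tumors (3916 to 4285), which gives a log2 ratio of -0.31 (-0.45 to -0.18). The number of genes was lower with separate intervals in 80% of the 20 clusters as well. This was the highest median of the 13 lymphocyte clusters in both groups, but its interval overlapped that of proliferating T cells, which had medians of 3052 genes in Cyp51-KO and 3990 genes in sg-Ctrl tumors. By genes after SCTransform the cluster stood at place 2 of 13 in Cyp51-KO tumors and at place 3 in sg-Ctrl tumors. Its median of genes detected was 2.36-fold that of the first functional cluster in Cyp51-KO tumors (2.13 to 2.54) and 1.80-fold in sg-Ctrl tumors (1.65 to 1.98). Relative to activated cells it was 1.83-fold in Cyp51-KO tumors and 1.64-fold in sg-Ctrl tumors. The drop between the groups was again smaller than in the first functional cluster, at 1404 genes in Cyp51-KO, against 2280 genes in sg-Ctrl tumors (log2 ratio -0.70, -0.81 to -0.56). Activated cells had 1808 genes in Cyp51-KO, against 2509 genes in sg-Ctrl tumors (-0.47, -0.66 to -0.32), which overlaps.

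Fewer genes were also detected at equal UMIs. Relative to a line of log10 genes on log10 UMIs through all 2246 NK cells, the cluster had a median log2 residual of -0.13 in Cyp51-KO tumors (-0.15 to -0.11), against -0.027 in sg-Ctrl tumors (-0.080 to -0.0020), a difference of -0.10. The first functional cluster differed by -0.12 and activated cells by -0.11, so a shift of similar size was found in all 3 NK clusters. Genes per cell level off as UMIs grow. With a curve of second degree in place of the line, a shape chosen once the values were known, the cluster lay at -0.086 in Cyp51-KO, against 0.030 in sg-Ctrl tumors, a difference of -0.12. With either shape the cluster had the lowest residual of the 3 NK clusters within each group, with separate intervals. Medians within ranges of UMIs, given below, had another order. By the line, the first functional cluster lay at -0.036 in Cyp51-KO, against 0.089 in sg-Ctrl tumors, and by the curve at -0.026 in Cyp51-KO, against 0.070 in sg-Ctrl tumors. The gap between the clusters was thus smaller with the curve. Between 10000 and 20000 UMIs the cluster had a median of 3278 genes in Cyp51-KO tumors (3114 to 3351), against 3434 genes in sg-Ctrl tumors (3311 to 3822), with intervals that overlap. Both other NK clusters had lower medians there. The first functional cluster had 3081.5 genes in Cyp51-KO, against 3396 in sg-Ctrl tumors, and activated cells had 3011, against 3317. Between 5000 and 10000 UMIs the second functional cluster was again highest in each group. From 20000 UMIs activated cells were highest in each group, with only 5 Cyp51-KO and 14 sg-Ctrl cells. UMIs were not matched within a range, so these medians do not settle the order at equal UMIs. Cells of the cluster had 4.54 UMIs per gene detected in Cyp51-KO, against 4.93 in sg-Ctrl tumors. In the first functional cluster these were 2.47 in Cyp51-KO, against 2.82 in sg-Ctrl tumors. Since genes level off, UMIs per gene rise with UMIs, so these values are no comparison at equal UMIs. Cells could not be thinned to 1 depth, since only totals per cell were at hand.

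**Figure D5:**
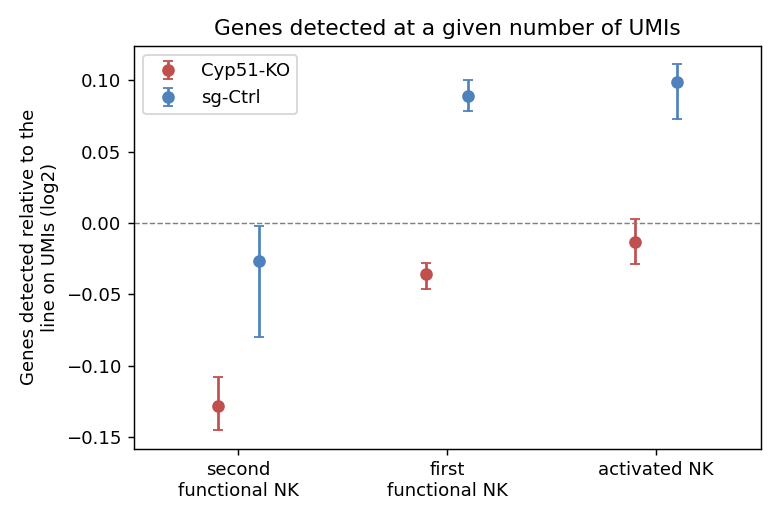
Median log2 residual of genes detected (vertical axis) from a line on UMIs through all NK cells, for the 3 NK clusters, Cyp51-KO left of sg-Ctrl, where bars are the exact 95% median interval. Each Cyp51-KO point lies below its sg-Ctrl point, at -0.13 for Cyp51-KO and -0.027 for sg-Ctrl in the second functional NK cluster.

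Mitochondrial transcripts, a common sign of cell stress or lysis when they are high, were a small part of the RNA of the cluster. The median was 0.792% of UMIs in Cyp51-KO tumors (0.757 to 0.845%), against 0.932% in sg-Ctrl tumors (0.874 to 1.02%), which gives a log2 ratio of -0.23 (-0.43 to -0.049). A lower percentage with separate intervals was found in 85% of the 20 clusters. Within Cyp51-KO tumors the cluster lay above the first functional cluster (0.693%, 0.671 to 0.716%) and below activated cells (0.953%, 0.910 to 1.01%), with separate intervals. In sg-Ctrl tumors it was level with the first functional cluster (0.927%, 0.886 to 0.963%) and below activated cells (1.26%, 1.20 to 1.34%). Only 1 cell of the cluster, in a Cyp51-KO tumor, was above 2.5%, and 0 of 108 sg-Ctrl cells were.

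Single cells of the cluster spread widely. In Cyp51-KO tumors UMIs ran from 917 to 70124, with 5th and 95th percentiles of 5758 and 42910, and in sg-Ctrl tumors from 4955 to 49240, with 8538 and 38442. The SD of log2 UMIs was 0.97 in Cyp51-KO, against 0.65 in sg-Ctrl tumors. It was 1.06 in Cyp51-KO, against 0.92 in sg-Ctrl tumors in the first functional cluster, and 0.95, against 0.75, in activated cells. Neither the spread nor its larger size in Cyp51-KO tumors was thus particular to this cluster. At the lower end, 2 Cyp51-KO cells stood apart, with 917 UMIs and 447 genes and with 933 UMIs and 409 genes, while the next had 2503 UMIs. At the upper end, 12 Cyp51-KO cells and 4 sg-Ctrl cells had at least 40000 UMIs, and the highest, in a Cyp51-KO tumor, had 6962 genes, close to the limit of 7000 that the authors set. Doublets, droplets that hold more than 1 cell, can reach such values. How the authors treated them is not stated in the paper or labels used here, and their part in the cluster was not tested.

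Over the whole table UMIs ran from 500 to 99951 per cell and genes from 226 to 6998. Between the groups 98 cell barcodes were shared, 1 of them by a cell of the second functional NK cluster, and 0 occurred more than once within a group. The cluster holds no cell that could be tied to a tumor or to 1 of the samples of its group.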

How the data were processed

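Cells of both groups of tumors were sequenced by a 5’ droplet method. According to the methods and the submitters' processing notes, reads were aligned to GRCm38 with Cell Ranger 7.0 and analysed in R 4.2.0 with Seurat 4.2.0. The authors removed cells with under 200 or over 7000 genes, under 500 or over 100000 UMIs or over 5% mitochondrial UMIs, merged the samples, applied SCTransform with the mitochondrial percentage regressed out, and named Louvain clusters, after leaving out 5 small clusters of sg-Ctrl cells as possible sequencing noise. The deposited values per cell are raw counts of UMIs, how many genes were detected, mitochondrial UMIs as a percent that the authors computed, and a depth-corrected number of genes from SCTransform, treated as a score of the authors. Normalized totals were not used, and values per gene were not analysed here.

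Each cell carries a group name (CYP51KO and WT, which the study ties to Cyp51-KO and sg-Ctrl). Sample titles were read as Cyp51-KO or sg-Ctrl from their prefix, which matches the barcode prefix of each group. Python 3.11.15 with pandas 2.3.3, NumPy 2.4.6, SciPy 1.17.1 and Matplotlib 3.10.9 gave exact 95% Clopper-Pearson intervals of shares, exact 95% intervals of medians from ordered values, and least squares fits. Intervals were tested on simulated data. Genes were named only as background, from the study's leading genes and the markers given. Alternatives were other denominators, a stricter cell filter (1000 UMIs or more, mitochondrial UMIs up to 2.5%) and omission of the top 5% by UMIs of all cells of a group. Further ones were the same weights for both groups over 5 UMI ranges, a line on UMIs within the cluster and means in place of medians. The members and lists were chosen with earlier results of these data known.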

Additional observations from a re-analysis of the deposited data

How the results depend on the processing

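No paired analysis was possible because no cell could be assigned to a sample within its group, and for the same reason no library could be left out in turn. The log2 ratio of the share of the second functional NK cluster among NK cells (0.43) stayed above 0 under all alternatives. It was 1.08 with both groups weighted to the same distribution of UMIs, and 0.98 among cells with at least 5000 UMIs, where the share was 29.7% in Cyp51-KO, against 15% in sg-Ctrl tumors with separate intervals. With at least 2000 UMIs it was 0.60, also with separate intervals. Both minima were chosen after the data were seen. NK cells had fewer UMIs in Cyp51-KO tumors (median 4591 UMIs, against 7564 UMIs in sg-Ctrl tumors), so a fixed minimum removes more of them there. The ratios at these minima are therefore given as values only, as is the weighted one. Other denominators gave 0.20 to 0.57, the stricter cell filter 0.42, and leaving out the 5% of cells with the most UMIs 0.43. The filter and this omission could hardly move it. Of the cluster, only 2 Cyp51-KO cells had under 1000 UMIs and only 1 was above 2.5% mitochondrial UMIs. The 5% was taken over all cells of a group, where malignant cells had medians of 39624 UMIs in Cyp51-KO and 45683 UMIs in sg-Ctrl tumors. Dependence on the NK cells with the most UMIs was thus not tested. The log2 ratio of median UMIs (-0.43) was -0.36 as a mean of log10 values. That of median genes (-0.31) was -0.11 relative to a line on UMIs fitted within the cluster and -0.11 with genes after SCTransform (2550 in Cyp51-KO, against 2746 in sg-Ctrl tumors). SCTransform genes were chosen after the data were seen. That of the mitochondrial percentage (-0.23) was -0.24 to -0.23. The number of cells, 184 and 108, limits every share, and the spread between tumors and libraries is unknown.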
